A study of Mus musculus with 8 samples.

Results

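Constitutive regions at gene ends are short stretches of open chromatin that every library of this study found beside a protein-coding gene. Peaks of the 8 deposited lists were merged wherever they shared at least 1 bp. The members were chosen by these peak calls, their widths and the position of the summit, so those values describe them and support nothing. A merged region was kept when it lay on chromosomes 1 to 19, was called in all 8 libraries and was under 1000 bp wide. Its summit, taken from the peak with the highest fold enrichment, also had to lie within 1 kb of either end of a protein-coding gene span. These conditions kept 7613 of 76751 merged regions, or 25.05% of the 30395 regions on those chromosomes that all 8 libraries held. The lists came from ATAC-seq, in which the Tn5 transposase cuts and tags open DNA, of macrophages grown from mouse bone marrow for 7 days. The 4 groups, with 2 libraries each, were Lamin-A knockout (KO) macrophages treated with LPS for 6 h, KO macrophages left untreated, wild-type (WT) macrophages treated with LPS for 6 h, and WT macrophages left untreated. All cells of all groups had been frozen in medium with 5% DMSO and thawed before tagmentation. Lamin-A, encoded by Lmna, is a filament protein of the nuclear lamina, and LPS, a component of the outer membrane of Gram-negative bacteria, is recognised by the receptor TLR4. The study asked how LPS changes chromatin accessibility and what part Lamin-A has in it. The labels do not give the dose of LPS, the part of Lmna that was targeted or the animals behind the replicates, so p-values over libraries measure the spread between these samples, which may be technical. Titles and treatment fields set the groups, because source names call the LPS libraries untreated too.

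The start of an actively transcribed mammalian gene is usually free of nucleosomes, because general transcription factors, RNA polymerase II and sequence-specific activators hold it open. Many such starts lie in CpG islands, stretches rich in CpG that escape DNA methylation and serve genes used in nearly every cell type. Common activators there are SP and KLF factors, which bind GC boxes, NF-Y, which binds the CCAAT box, and ETS, NRF1, YY1 and CREB family proteins. Genes induced in macrophages by LPS often have starts with fewer CpGs, and they depend on NF-kB, AP-1 and interferon regulatory factors as well as on PU.1, the ETS factor that sets macrophage identity.

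Promoter sequences of 8 genes are shown because their regions stand for the patterns described below. Each runs 5′ to 3′ on the gene's strand from 250 bases before to 50 bases after the listed start site. Positions are counted from 1 at the 5′ end. They come from RefSeq (mm10), and capitals mark every match on either strand to 12 motifs. The GC box of SP and KLF factors was searched as GGGCGG, and the box of NF-Y as CCAAT. For the ETS core the letters were CCGGAAG, and for the related PU.1 type they were GAGGAAGT. The core bound by NRF1 was written GCATGCGC, and the core bound by YY1 was written AAGATGG. The CREB family element, or CRE, was TGACGTCA, and the E-box of basic helix-loop-helix factors was CACGTG. A palindrome with the letters CTCGCGAG and the TATA box, given as TATAAA, were searched as well. The AP-1 site was TGANTCA, where N is any base, and the last motif was an ISRE type element of interferon regulatory factors. None of the 12 contains another, though matches can share bases. A match is a match of letters and not a shown binding site. Zbed5 (chr5:129895473-129895772, + strand), Cdca8 (chr4:124936868-124937167, - strand) and Wdr19 (chr5:65199446-65199745, + strand) mark the 3 strongest regions whose nearest listed start is that of a protein-coding gene:
Zbed5: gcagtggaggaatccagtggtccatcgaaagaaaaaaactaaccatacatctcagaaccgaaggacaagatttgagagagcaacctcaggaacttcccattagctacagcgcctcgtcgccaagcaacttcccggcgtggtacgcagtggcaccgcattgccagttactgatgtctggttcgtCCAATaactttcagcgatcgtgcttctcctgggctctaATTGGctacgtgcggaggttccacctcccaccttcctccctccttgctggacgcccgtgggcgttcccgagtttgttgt
Cdca8: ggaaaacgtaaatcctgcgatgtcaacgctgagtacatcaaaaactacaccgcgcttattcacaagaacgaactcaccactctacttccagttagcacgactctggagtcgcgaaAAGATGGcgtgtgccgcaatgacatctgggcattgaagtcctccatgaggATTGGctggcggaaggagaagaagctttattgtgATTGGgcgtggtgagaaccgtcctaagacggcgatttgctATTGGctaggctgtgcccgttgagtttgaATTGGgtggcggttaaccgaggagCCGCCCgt
Wdr19: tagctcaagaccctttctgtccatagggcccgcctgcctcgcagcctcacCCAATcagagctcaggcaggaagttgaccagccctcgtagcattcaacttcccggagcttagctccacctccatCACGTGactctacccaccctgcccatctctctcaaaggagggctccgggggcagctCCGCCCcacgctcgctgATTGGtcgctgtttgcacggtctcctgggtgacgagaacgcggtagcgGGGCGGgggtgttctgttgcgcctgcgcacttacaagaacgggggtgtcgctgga
Cdca8 holds 4 CCAAT boxes, at positions 166, 200, 240 and 269, and its summit is at position 210. Zbed5 holds 2, at 184 and 222, and its summit is at 173. Wdr19 holds 2 as well, at 51 and 198, with its summit at 148. Ptgs2 (chr1:150099781-150100080, + strand) and Il6 (chr5:30012864-30013163, + strand) were chosen after their values were seen, as starts of inflammatory genes whose regions stood higher in every LPS library than in every untreated one:
Ptgs2: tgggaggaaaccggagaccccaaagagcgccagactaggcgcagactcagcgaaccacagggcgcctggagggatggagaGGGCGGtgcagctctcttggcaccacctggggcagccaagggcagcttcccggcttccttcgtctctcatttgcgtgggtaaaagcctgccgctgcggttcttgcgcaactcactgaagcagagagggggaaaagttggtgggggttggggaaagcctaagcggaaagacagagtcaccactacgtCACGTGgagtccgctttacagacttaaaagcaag
Il6: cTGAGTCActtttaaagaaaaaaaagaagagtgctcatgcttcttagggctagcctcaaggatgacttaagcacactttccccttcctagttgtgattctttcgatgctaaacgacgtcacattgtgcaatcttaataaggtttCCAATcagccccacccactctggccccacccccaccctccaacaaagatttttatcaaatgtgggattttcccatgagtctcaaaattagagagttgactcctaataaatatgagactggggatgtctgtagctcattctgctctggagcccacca
The summit is at position 266 in Ptgs2, beside an E-box at 267, and at position 42 in Il6, which has an AP-1 match at position 2. S100a8 (chr3:90668821-90669120, + strand) and Gm5141 (chr13:62785759-62786058, - strand) had the largest difference between KO and WT, in each direction, among members with a listed promoter. Zmpste24 (chr4:121098161-121098460, - strand), which encodes the protease that cleaves prelamin A, was added after its values were seen:
S100a8: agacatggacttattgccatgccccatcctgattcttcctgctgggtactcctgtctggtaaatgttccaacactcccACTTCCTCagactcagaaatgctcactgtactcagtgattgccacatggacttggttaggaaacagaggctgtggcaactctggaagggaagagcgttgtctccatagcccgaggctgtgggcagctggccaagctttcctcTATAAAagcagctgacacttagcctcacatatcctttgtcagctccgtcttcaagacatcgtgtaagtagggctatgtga
Gm5141: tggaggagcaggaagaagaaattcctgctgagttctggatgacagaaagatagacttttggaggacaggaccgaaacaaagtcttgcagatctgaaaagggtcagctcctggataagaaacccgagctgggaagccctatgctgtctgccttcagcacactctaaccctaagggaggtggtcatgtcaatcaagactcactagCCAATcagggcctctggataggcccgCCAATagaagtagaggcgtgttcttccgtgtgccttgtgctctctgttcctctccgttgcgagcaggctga
Zmpste24: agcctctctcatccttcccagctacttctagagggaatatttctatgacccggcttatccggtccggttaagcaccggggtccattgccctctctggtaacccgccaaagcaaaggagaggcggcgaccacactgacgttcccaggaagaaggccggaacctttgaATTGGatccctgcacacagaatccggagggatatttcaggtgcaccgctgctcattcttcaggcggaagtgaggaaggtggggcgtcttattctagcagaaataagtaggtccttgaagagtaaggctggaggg
S100a8 has a PU.1 type match at position 79 and a TATA box at 221, 4 CpGs in all and a summit at position 154. Gm5141 has CCAAT boxes at 204 and 230.

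Most of the regions sat on transcription start sites, just upstream of the first base. The median summit lay 84 bp from the nearest gene end (quartiles 37 and 215), and 4302 of 7613 (56.5%) lay within 100 bp of it, although the rule allowed 1 kb. RefSeq promoter entries, which give strand, covered the nearest gene of 6223 regions (81.7%). In all, 5714 regions (75.1%) had a listed start site within 1 kb, and their median summit was 39 bp upstream of it (quartiles 100 bp upstream and 23 bp downstream), with 66.2% on the upstream side. Another 430 regions lay at a gene's far end only, 197 at the first end of a span where no start is listed, and 1272 beside genes without a promoter entry. Among the regions at starts, 895 had within 1 kb a pair of starts that point away from each other, called divergent starts below. The summit need not lie between them.

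**Figure D1:**
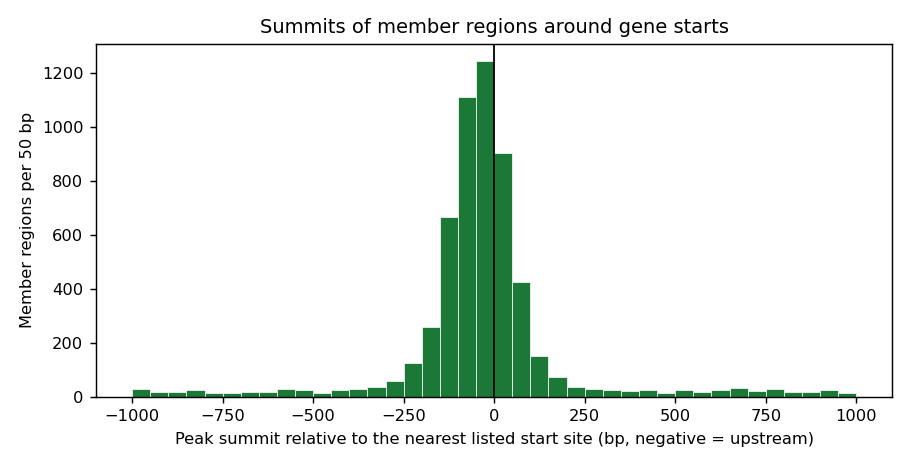
Number of member regions per 50 bp of distance between the peak summit and the nearest listed start site of the 5714 regions that have one within 1 kb; negative values are upstream and the line marks the start. The counts are highest in the 100 bp before the start, around the median of 39 bp upstream.

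The regions reached 7993 of the 20665 protein-coding genes on these chromosomes (38.7%), and broad regions, at least 1000 bp wide after merging, lay at the ends of 1403 genes (6.79%). A total of 249 genes were nearest to regions at both of their ends. Of all regions on these chromosomes with a summit at a gene end, 67.4% were called in all 8 libraries, against 34.7% of those farther away. The merged width ran from 227 to 999 bp, with a median of 659 bp. Just inside the width limit were regions of Cyb5r1, Bnip3l and Cmbl, at 999 bp, and just outside it those of Dip2a, Zdhhc17 and Ndel1, at 1000 bp. Just inside the distance limit were Trim41, Tifa and Cwf19l2, at 1000 bp, and just outside it Phf19, P2ry13 and Eif4a1, at no more than 1002 bp.

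The lists held 44504 to 49661 peaks in KO libraries and 53942 to 59750 in WT libraries, and read totals were not used here. Of 12 macrophage markers, 10 had one of the regions at an end (Spi1, Csf1r, Adgre1, Itgam, Cd68, Cd14, Lyz2, Mpeg1, Cx3cr1 and Trem2), and Mertk and Fcgr1 had a broad one. None of 6 B cell markers and none of 6 erythroid and megakaryocyte markers had one. Among T and NK cell markers Cd3d had one, among neutrophil markers Camp, and among stromal and endothelial markers Col1a1 and Kdr, each 6 genes long as a list.

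Strength is given below as a percentile from 0 to 100. Fold enrichment over local background, the authors' own value for each peak, was ranked within each library over the 30395 regions, so every library ranked the same regions and a gain in one place is a loss in another. A percentile is therefore a relative rank and not an amount of open chromatin. Median fold enrichment of the regions was 9.58 to 12.4 over the libraries.

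Regions at gene ends ranked higher as a whole than constitutive regions also under 1000 bp wide but over 1 kb from any gene end, of which there were 20863. The 2 sets differed in width, with medians of 659 and 494 bp after merging. The median percentile was 64.1 and 61.9 in the KO LPS libraries, 66.1 and 65.6 in untreated KO, 62.2 and 63.2 in WT LPS and 63.9 and 65.0 in untreated WT. The distant regions had medians of 44.1 to 46.4. The gene-end regions were higher in 8 of 8 libraries, by 15.8 to 22.1 points, with means of 64.0 ± 1.54 and 45.3 ± 0.757 (SD, n = 8), and the exact two-sided sign-flip permutation p was 0.0078, the smallest 8 libraries allow, or 0.0352 after Benjamini-Hochberg adjustment over 18 library-level tests. This difference depended on width. Among regions 300 to 400 bp and 400 to 500 bp wide after merging, gene-end regions stood lower in 8 of 8 libraries, by 9.02 and 9.93 points. From 500 bp upwards they stood higher in 8 of 8 libraries in each 100 bp class, by 5.25 points at 500 to 600 bp and by 22.3 points at 700 to 800 bp. Within a library the peak at a gene end had a median width of 536 ± 43.3 bp, and that at a distant region 410 ± 22.1 bp (SD, n = 8), a description only because the rule used width. Broad regions at gene ends had medians of 58.0 to 61.4 in KO libraries and 52.6 to 54.5 in WT libraries, a description only because width divided them from the others.

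Regions at listed starts also ranked higher as a whole than those at far ends only, and regions at divergent starts higher than those at single starts. Regions at listed starts had a mean library median of 67.7 ± 1.46, and regions at far ends only had 34.7 ± 0.966 (SD, n = 8), a difference of 30.9 to 35.5 points seen in 8 of 8 libraries (exact sign-flip permutation adjusted p = 0.0352). Regions at divergent starts stood above those at single starts, at 76.0 ± 1.22 and 66.1 ± 1.46 (SD, n = 8). The difference was 8.27 to 11.4 points in 8 of 8 libraries (exact sign-flip permutation adjusted p = 0.0352). Both of these comparisons were added after the values were seen, and both depended on width. The median merged width was 676 bp at listed starts and 484.5 bp at far ends only, and among regions of 300 to 400 bp and 400 to 500 bp starts stood lower than far ends in 8 of 8 libraries, by 7.42 and 4.55 points on average, while from 500 to 800 bp they stood higher in 8 of 8. Regions at divergent starts had a median width of 727 bp and those at single starts 667 bp. Divergent starts stood higher in 8 of 8 libraries in each class from 500 bp upwards, by 1.82 to 12.6 points, but in 1 of 8 at 400 to 500 bp. Same-group libraries ranked the regions alike, with Pearson correlations of 0.945 to 0.965 across the 7613 regions, and libraries of different groups with 0.873 to 0.943. The distant regions gave 0.916 to 0.939 and 0.683 to 0.888. Regions of 1 library share its depth and are not independent.

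**Figure D2:**
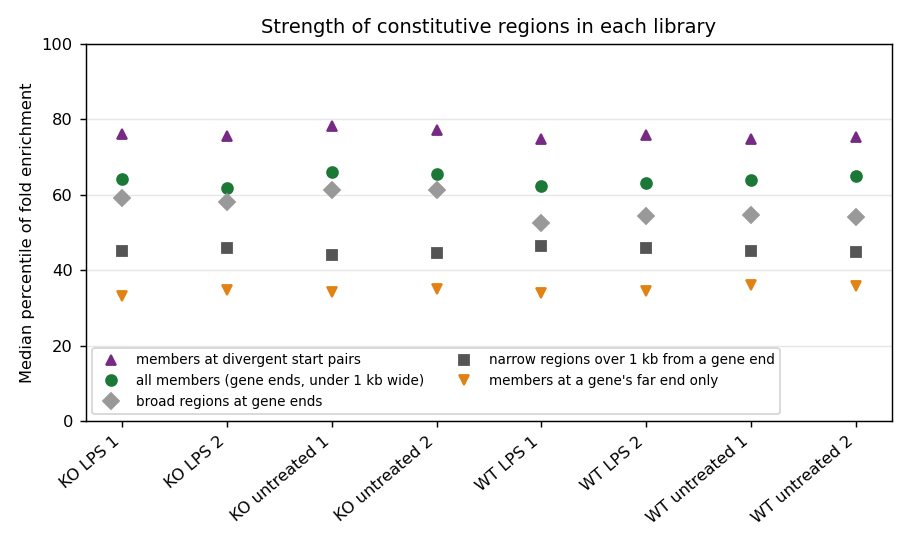
Median percentile of fold enrichment in each of the 8 libraries for regions at divergent starts, all members, broad regions at gene ends, narrow regions over 1 kb from any gene end, and members at a gene's far end only. All members sit at 61.9 to 66.1 and the distant narrow regions at 44.1 to 46.4, with no overlap.

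The promoters under these regions held more CpG, GC box and ETS core letters than promoters at large. Of 20085 protein-coding promoters in the RefSeq table, 5224 were the nearest listed start of a member region, the only start counted per region. Their median GC content was 61% against 57% over all promoters, and their median ratio of observed to expected CpG was 0.787 against 0.586, with 78.0% against 48.9% at 0.6 or more. The GC box was in 68.2% of them against 47.0% of all promoters, and the ETS core in 22.5% against 11.9%. NRF1 letters were in 6.39% against 3.55%, CRE letters in 4.15% against 2.30%, the E-box in 11.1% against 7.89%, YY1 letters in 7.98% against 6.29%, and the CTCGCGAG palindrome in 2.01% against 1.21%. The TATA box went the other way, with 6.20% against 12.7%, as did the AP-1 site, with 5.28% against 7.06%. PU.1 type letters (3.62% against 3.18%) and ISRE type letters (3.62% against 3.38%) were close to their share in all promoters.

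The share of promoters with a CCAAT box was higher in stronger regions. It was in 42.0% of member promoters and 38.1% of all promoters, but its share was 28.7%, 32.7%, 36.6%, 48.4% and 63.6% over 5 equal groups of the member promoters, from those at the weakest regions to those at the strongest. In the strongest 10% of the regions, 69.5% of promoters held it and 42.1% held at least 2 copies, as Zbed5, Cdca8 and Wdr19 do. In the weakest 10% the shares were 26.6% and 6.50%. Member promoters with a CCAAT box had a median percentile of 79.5, and those without one 61.5. The nearest CCAAT box lay a median of 31.5 bp from the summit, with 43.8% within 25 bp, against 39 bp for the GC box, 48.5 bp for the ETS core and 122 bp for the TATA box. CCAAT boxes of member promoters lay at a median of 80 bases before the start, and those of all promoters at 88. The share with an ETS core was 15.9% in the weakest of the 5 groups and 27.5% in the strongest, while the GC box stayed between 64.3% and 70.1%. Neighbouring groups were not tested against each other, since promoters are not replicates. Across the same groups the median GC content was 61.7%, 61%, 61%, 60.7% and 60.3%, and the median merged width 595, 675, 718, 711 and 687 bp.

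**Figure D3:**
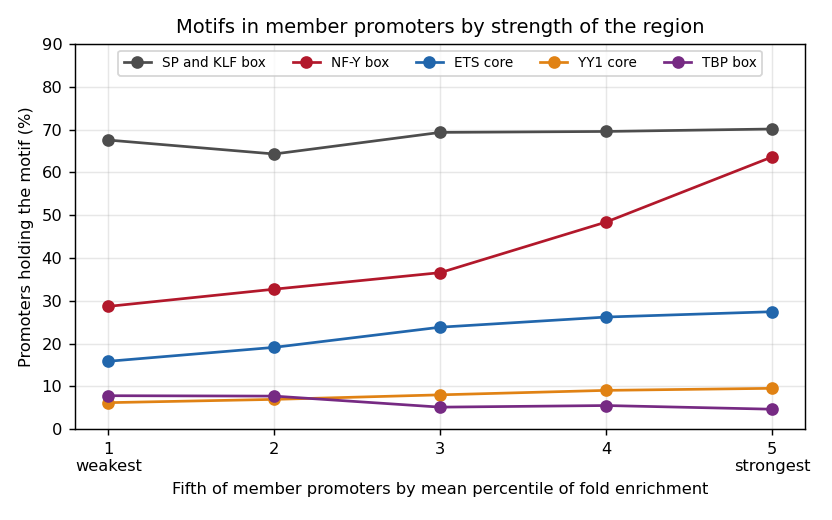
Percentage of the 5224 member promoters that hold the GC box (SP and KLF box), the CCAAT box (NF-Y box), the ETS core, the YY1 core or the TATA box (TBP box), in 5 equal groups by the mean percentile of the region. The NF-Y box share is 63.6% in the strongest group, against 28.7% in the weakest, while the SP and KLF box stays between 64.3% and 70.1%.

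The strongest regions, with mean percentiles of 99.82 to 99.96 and fold enrichments of 21.1 to 26.4, lay at 10 places. They were at Zbed5, at the divergent start of Cdca8 and 9930104L06Rik, and at Cdc25c, Golph3l, Wdr19, Ticrr, Herc2, Nol6, Tctn3 and Tmem218. The nearest listed start of the Golph3l, Herc2 and Tctn3 regions was that of Gm40097, Gm34121 and Entpd1. Cdca8 encodes borealin of the chromosomal passenger complex, Cdc25c the phosphatase that activates CDK1 at mitotic entry, and Ticrr a factor that fires replication origins. Wdr19, Tctn3 and Tmem218 encode proteins of the cilium or its transition zone. Nol6 acts in ribosome assembly, Golph3l at the Golgi and Herc2 is a ubiquitin ligase. Their percentile was at least 99.49 in every library.

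Genes of the basic machinery of the cell were reached at 51.6% to 93.8% of each list, against 38.7% of all protein-coding genes. The median of their mean percentiles ran from 70.7 to 87.1, against 63.0 over all 7613 regions. Vacuolar ATPase and lysosomal enzyme genes, with a median of 32.8, are left out of these ranges and given apart below. A region can lie at the ends of a pair of genes: those of Snrnp40, Rpa1 and Dnajb11 were nearest to Zcchc17, Smyd4 and Tbccd1. Of 32 proteasome subunits, 30 (93.8%) had a region at an end, with a median percentile of 73.4, led by the ATPase subunit Psmc4 (99.03) and the core subunits Psmb2 (97.8) and Psma4 (97.0). Of 42 spliceosome genes, 38 (90.5%) had one, with a median of 81.3, and the regions of Snrnp40, Snrpc and Prpf8 stood at 99.6 to 99.7. For aminoacyl-tRNA synthetases, which charge tRNAs, the count was 32 of 37 and the median 81.4, led by Lars (98.9), Tars (97.0) and Lars2 (95.9). Mediator, the complex that links activators to RNA polymerase II, had 24 of 29 genes and a median of 85.6, with Med19 at 99.1 and Med27 and Med24 at 98.1. RNA polymerase II and general transcription factors had 33 of 42 and 72.9, led by Taf7, Taf13 and Gtf2e1.

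Ribosomal and mitochondrial genes were similar. Cytosolic ribosomal proteins had regions at 59 of 75 genes with a median of 79.4, led by Rpl27 (99.7), Rpl31 (99.1) and Rps6 (97.0). Mitochondrial ribosomal proteins had 60 of 75 and 71.5, led by Mrps14 (99.7), and respiratory complex I had 28 of 34 and 75.1, led by its flavoprotein subunit Ndufv1 (98.8). Translation initiation factors had 26 of 37 and 78.3, led by Eif2b2 (99.6), with another 9 genes at broad regions only. Genes of DNA replication and the cell cycle had 36 of 47 and 79.3, and the single-stranded DNA binding subunits Rpa1 and Rpa2 stood at 99.4. Chaperones had 16 of 31, with 9 more at broad regions only, and the highest median, 87.1, led by Dnajb11, Hspa14 and Tcp1. Nuclear pore and lamina genes had 26 of 42 and 70.7, with 10 more at broad regions only, led by the nucleoporins Nup54, Nup155 and Nup214.

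Lysosomal, macrophage identity and immune response genes were reached at 48.4% to 84.4% of each list. Their medians were 32.8 to 54.0, under the 63.0 of all the regions. Vacuolar ATPase and lysosomal enzyme genes had regions at 27 of 32 genes (84.4%), yet the median percentile was 32.8, with the lysosomal lipase Lipa (91.1) at the top. NF-kB pathway genes had 24 of 31 and a median of 45.7, led by the ubiquitin ligase Birc2 (90.04). Interferon response genes had 29 of 39 and 54.0, led by the signal transducer Stat2 (94.2). Macrophage identity genes had 19 of 30 and 40.5, led by the far-end region of the fractalkine receptor Cx3cr1 (90.9). Inflammatory cytokine and enzyme genes had 15 of 31 and 37.0, led by Il18 (83.5).

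Genes of other lineages were mostly absent. None of 12 B cell genes and none of 10 erythroid and megakaryocyte genes had a region at an end, and liver, brain and muscle genes had 1 of 28, the creatine kinase Ckm (64.9). T and NK cell genes had 4 of 17, namely Cd3d (90.5), Klrb1c (72.0), Cd5 (59.1) and Cd4 (10.00). Neutrophil genes had 4 of 14, namely Mmp8 (90.2), Camp (63.3), S100a8 (55.3) and the weaker Prtn3, and stromal and endothelial genes had Kdr (88.7) and Col1a1 (14.8) of 16. A gene end can hold a region that belongs to a neighbour, and Cd3d, Mmp8, Prtn3 and Kdr were reached at their far end, while the region of Cd4 was nearest to Gpr162.

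**Figure D4:**
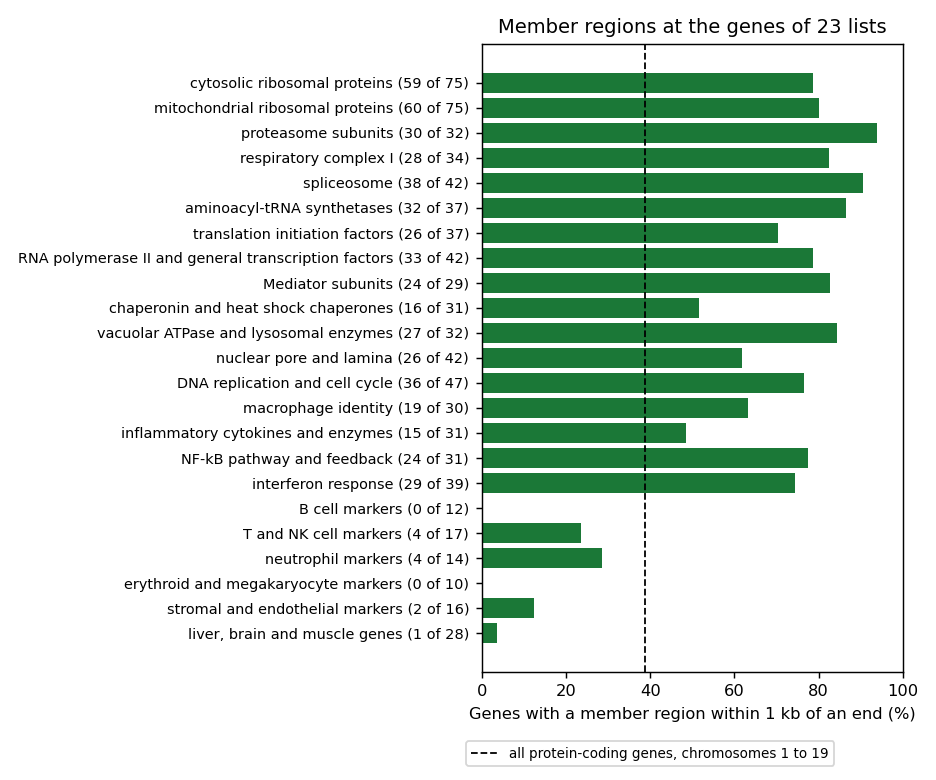
Percentage of the genes in 23 lists that have a member region within 1 kb of an end, with the number of genes in brackets. The dashed line is the share over all 20665 protein-coding genes of chromosomes 1 to 19, 38.7%; proteasome subunits reach 93.8% and B cell markers 0.

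With LPS, regions at the inflammatory genes Nos2, Ptgs2 and Il6 stood higher in all 4 libraries, and those at Ccl2, Ccl3 and Il12b lower. Regions at cathepsin genes, Tlr4, Msr1 and Tyrobp also stood lower in all 4. Such lower regions were 20% of inflammatory, 11.4% of lysosomal, 26.9% of NF-kB pathway and 22.7% of macrophage identity regions, against 13.2% of all 30395. When regions were ranked by -log10 p, the LPS and untreated libraries overlapped at Ccl3 and Il12b. The median over all the regions did not pass the test. The median percentile was 62.8 ± 0.985 in the 4 LPS libraries and 65.2 ± 0.990 in the 4 untreated ones (SD), a difference of -2.32 points. The exact stratified permutation p was 0.0556, the smallest this design allows, and 0.125 after adjustment. The difference was -2.89 within KO and -1.74 within WT, and -1.16 between these effects (exact permutation adjusted p = 0.706). Both LPS libraries lay on one side of both untreated ones in KO and on the opposite side in WT at 282 regions (3.70%), against 3.15% of all 30395 regions. Width and summit distance, which the rule used, are given as a description: median peak width was 522.75 ± 44.1 bp with LPS and 549.25 ± 44.2 bp without, and the median summit distance from the gene end 84.75 ± 2.63 bp and 82.5 ± 5.07 bp (SD, n = 4 each).

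A region was counted as higher, or lower, with LPS when its percentiles in all 4 LPS libraries lay above, or below, those in all 4 untreated libraries, with no p-value per region. Higher with LPS were 441 of 7613 (5.79%), against 12.3% of all 30395 regions, and lower were 740 (9.72%), against 13.2%. Both shares lie under the background. At distant narrow regions the shares were 15.1% and 14.8%, and the gap held within each width class from 400 bp upwards, for example 5.34% and 12.5% higher at 700 to 800 bp. The 10th and 90th percentiles of the LPS difference were -13.3 and 8.29 points at gene ends, and -20.0 and 22.5 points at distant regions. Ranking by the authors' -log10 p in place of fold enrichment gave 464 higher (6.09%, background 15.5%) and 947 lower (12.4%, background 16.5%), of which 261 and 508 were called by fold enrichment too. By place, LPS-higher and LPS-lower regions made up 5.37% and 8.995% at listed starts, 11.9% and 14.0% at far ends only, and 5.47% and 6.03% at divergent starts.

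The 5 regions with the largest gain lay at Plpp1, Gm4606, Alkbh3, 2010003K11Rik and Cd69. The region of Plpp1, a phospholipid phosphatase, stood at percentiles of 68.0, 79.6, 60.0 and 61.2 in the LPS libraries, against 11.9, 2.41, 1.31 and 2.10 in the untreated ones, each set with its KO libraries first. Cd69 encodes an early activation antigen of leukocytes, and its region stood at 79.8, 73.9, 71.9 and 75.1 with LPS, against 8.88, 28.6, 27.3 and 17.9 without. All 5 had differences of 54.5 to 62.8 points and kept the call under the -log10 p ranking. The 5 with the largest loss lay at Folr1, Hcar2, Olfr110, Spata22 and Gnpnat1, with differences of -50.7 to -65.1 points, and kept it too. The region near Hcar2, the niacin receptor, stood at 17.3, 13.8, 12.1 and 17.2 with LPS, against 79.7, 60.5, 66.5 and 66.3 without. Gnpnat1 makes a precursor of UDP-N-acetylglucosamine, and its region stood at 19.2, 8.46, 23.8 and 13.7 with LPS, against 63.5, 79.3, 58.9 and 66.2 without. In all 10 the LPS and untreated libraries did not overlap, as the rule required.

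**Figure D5:**
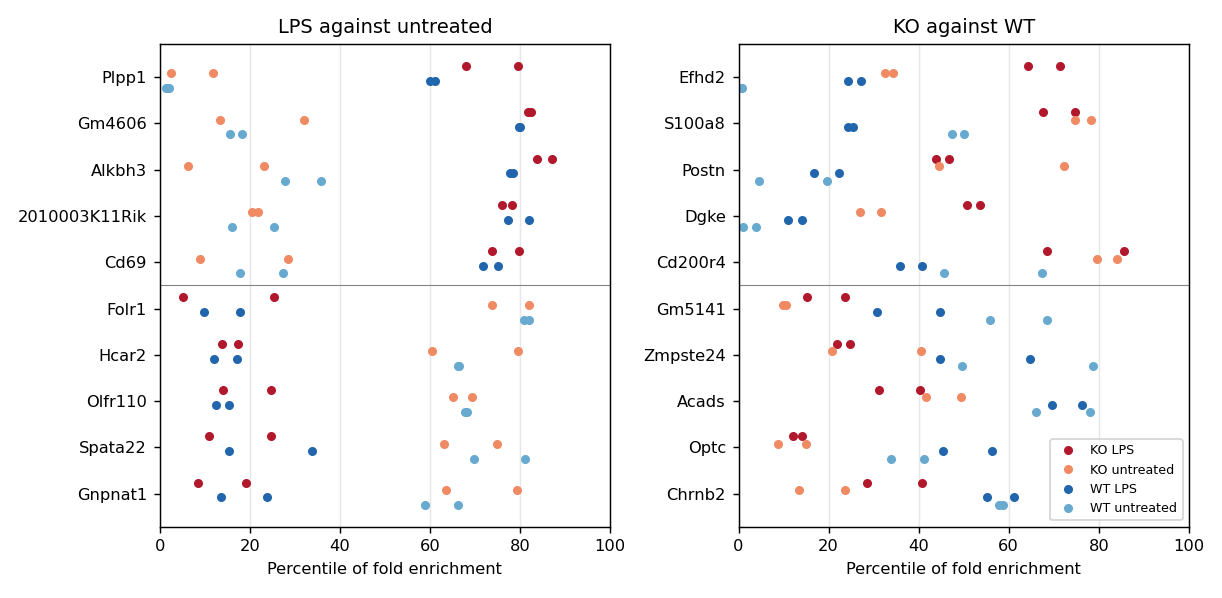
Percentile of fold enrichment of 10 regions chosen for LPS against untreated (left) and 10 chosen for KO against WT (right), each point 1 library, with the 5 higher regions above the line and the 5 lower ones below it. In each panel the 4 points of one side lie apart from the 4 of the other, which the choice required.

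Inflammatory enzymes and cytokines had 4 regions higher with LPS (26.7%, against 12.3% of all regions) and 3 lower (20%, against 13.2%) of 15, in genes named here after their values were seen. The median LPS difference of the list was 2.18 points, against -0.637 over all 7613 regions. The region at Nos2, the inducible nitric oxide synthase, stood at 58.4, 63.2, 44.6 and 42.4 with LPS, against 7.33, 21.5, 9.14 and 13.6 without, each set with KO first. Ptgs2, the inducible cyclooxygenase, stood at 75.8, 78.6, 76.6 and 59.7 with LPS, against 37.1, 44.1, 40.3 and 53.6 without. Il6, a pyrogenic cytokine, stood at 78.4, 82.0, 58.4 and 60.7 with LPS, against 40.1, 48.5, 48.3 and 45.7 without. These 3 and Edn1 kept the call under -log10 p. Lower were Ccl2, the region shared by the ends of Ccl3 and Ccl4, and Il12b, of which Ccl2 kept the call.

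NF-kB pathway genes had 2 regions higher (7.69%, against 12.3% of all regions) and 7 lower (26.9%, against 13.2%) of 26, with a median difference of -1.01 points. Tlr4, the LPS receptor, stood at 58.6, 48.7, 51.6 and 44.8 with LPS, against 84.9, 77.1, 85.3 and 82.1 without, a difference of -31.4 points by fold enrichment and -35.1 by -log10 p. Tnfaip3, the ubiquitin-editing inhibitor of NF-kB known as A20, stood at 34.0, 53.6, 19.1 and 18.1 with LPS, against 77.6, 73.7, 76.5 and 73.4 without, a difference of -44.2 points by fold enrichment but -8.05 by -log10 p, where the libraries overlapped. Ikbkb, which encodes the kinase IKK beta, differed in opposite directions at its ends, by -17.4 points at the region from 22706395 to 22706838 on chromosome 8 and by 28.7 points at the region from 22658509 to 22659376, and both kept the call under -log10 p. Of the 7 lower regions 2 kept it, and of the 2 higher ones both did, the other being the far end of the kinase-dead inhibitor Irak3. Traf2, Irak2, Bcl3 and Zc3h12a were lower by fold enrichment and overlapped by -log10 p.

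Lysosomal genes had none of 35 regions higher and 11.4% lower with LPS, and macrophage identity genes 4.55% higher and 22.7% lower of 22, against 12.3% and 13.2% of all regions and 5.79% and 9.72% of those at gene ends. The median differences were -0.673 and -2.37 points. The cathepsin genes Ctsb, Ctsd and Ctsa, with 2 regions at Ctsa, held the 4 lower regions, and all 4 kept the call under -log10 p. The start of Ctsd stood at 10.1, 17.4, 8.06 and 7.35 with LPS, against 32.7, 28.2, 32.2 and 32.8 without. Of 22 macrophage identity regions 5 were lower, among them Cd14, Fcgr3, Msr1 and Tyrobp, and 1 was higher, at the receptor gene Csf1r. The Csf1r region lay near the bottom of the ranking, at 6.8, 9.47, 3.43 and 3.69 with LPS, against 0.45, 1.58, 0.8 and 0.17 without. Tyrobp, the adaptor DAP12, stood at 5.91, 10.0, 15.6 and 13.0 with LPS, against 48.4, 47.3, 48.7 and 36.8 without. The scavenger receptor gene Msr1 stood at 38.5, 48.0, 20.1 and 28.1 with LPS, against 67.5, 62.7, 71.0 and 62.1 without. Msr1 and Tyrobp kept the call under -log10 p, as did Csf1r, while Cd14 and Fcgr3 did not.

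Interferon response regions had 1 higher, Irf7, by 14.1 points, and 3 lower, at Usp18, at a region upstream of the start of Psmb8 and 466 bp from an end of Tap1, and at Ifit2. These made up 3.12% and 9.38% of its regions, under the 12.3% and 13.2% of all regions. Irf7 kept the call under -log10 p, the 3 lower ones did not, and Usp18 turned to 3.02 points. DNA replication and cell cycle regions had none higher and 4 lower of 38 (10.5%, against 13.2% of all regions), at Orc5, Cdk1, Mki67 and Rb1, all of which kept the call. Mitochondrial ribosomal protein regions had 7 higher (10.8%, against 12.3%) and 1 lower (1.54%, against 13.2%) of 65. Of the 7, 4 kept the call under -log10 p. The region 119 bp from an end of Mrps34 differed by 42.3 points by fold enrichment and by 55.5 by -log10 p. Its nearest listed start was that of Nme3. Neutrophil gene regions had 1 higher and 1 lower of 5 (20% each, against 12.3% and 13.2%), with a median difference of -5.88 points. The higher one, at Camp, which encodes the cathelicidin peptide, stood at 92.0, 90.5, 87.0 and 78.9 with LPS, against 54.4, 45.1, 32.0 and 26.1 without. The lower one, at Prtn3, differed by -12.8 points, and both kept the call under -log10 p. Promoters of LPS-higher and LPS-lower regions had median CpG ratios of 0.736 and 0.720, under the 0.787 of all member promoters.

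In Lamin-A KO macrophages, Lmna itself still had a constitutive region at an end of its span. The region from 88509761 to 88510438 on chromosome 3 (mm10), with its summit 217 bp from that end and no listed start site beside it, stood at 77.1 and 84.6 in KO LPS libraries and 78.3 and 75.3 in untreated KO, against 69.6 and 70.2 in WT LPS and 59.2 and 50.8 in untreated WT. KO was higher by 16.4 points by fold enrichment and by 1.58 by -log10 p, where the libraries overlapped. This region does not test the deletion, since the targeted part is not stated. Lmnb1, which encodes the B-type lamin B1, stood at 25.5 to 43.5 in KO libraries and 33.9 to 45.9 in WT libraries, which overlap.

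The exact stratified permutation test of KO against WT ranks could not reach 0.05, because 4 libraries each allow no p below 0.0556. It cannot show whether gene-end regions ranked alike in KO and WT macrophages. The median percentile was 64.5 ± 1.90 in the 4 KO libraries and 63.6 ± 1.17 in the 4 WT ones (SD), a difference of 0.892 points (exact stratified permutation p = 0.278, adjusted p = 0.357), which was -1.29 when regions were ranked by -log10 p. As a description, since the rule used width, the median width of the peak at a region was 506 and 468 bp in KO LPS libraries and 527 and 500 bp in untreated KO, against 557 and 560 bp in WT LPS and 571 and 599 bp in untreated WT. The means were 500.25 ± 24.4 bp and 571.75 ± 19.1 bp (SD, n = 4 each), with no overlap and a difference of -71.5 bp within each treatment. Every KO list also held fewer peaks than every WT list, and a tie between list size and width was not tested. KO peaks had lower median widths at distant regions too, and the excess width of gene-end over distant peaks was 109.75 ± 17.7 bp in KO and 142.25 ± 11.1 bp in WT (SD, n = 4 each). Summit distance from the gene end was 81.5 ± 4.80 bp in KO and 85.75 ± 0.957 bp in WT.

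Regions whose 4 KO percentiles all lay above the 4 WT ones numbered 516 of 7613 (6.78%), against 5.39% of all 30395 regions, and those all below numbered 244 (3.21%), against 3.36%. By -log10 p the counts were 242 (3.18%, background 3.7%) and 309 (4.06%, background 2.98%), so that neither direction stood on the same side of its background under both rankings. Of the 516 and 244 regions, 168 and 122 were called by both. With 1 library left out the counts were 651 to 782 higher and 329 to 440 lower. That setting leaves 3 libraries against 4 to separate, and it also gives more members, 7672 to 7983. The share over all regions was not computed there, so these counts have no background beside them. The count of higher regions was over 1.5 times its value without KO LPS replicate 2 (782). That of lower regions was so without KO LPS replicate 1 (379), untreated KO replicates 1 (440) and 2 (395), WT LPS replicate 1 (372) and untreated WT replicate 1 (381). Broad regions at gene ends were higher in KO at 16.6%, and distant narrow regions at 4.13%. Of 68 regions within 5 Mb of Lmna, 6 were higher in KO (8.82%) and 2 lower (2.94%), against 510 (6.76%) and 242 (3.21%) of 7545 elsewhere. Promoters of regions called KO-higher by fold enrichment had a median CpG ratio of 0.846, against 0.787 in all member promoters. Of the 12 motifs, the NRF1 core was in 11.8% against 6.39% and the GC box in 73.7% against 68.2%. The ETS core was in 21.1% against 22.5%, and the CCAAT box in 41.9% against 42.0%. No motif share was tested.

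The 5 regions that stood highest in KO relative to WT lay at Efhd2, S100a8, Postn, Dgke and Cd200r4. S100a8, a subunit of calprotectin that lies within 5 Mb of Lmna, stood at 74.6 and 67.6 in KO LPS libraries and 74.8 and 78.3 in untreated KO, against 25.3 and 24.4 in WT LPS and 50.1 and 47.4 in untreated WT. The far end of Efhd2, a calcium-binding protein gene, stood at 64.3 and 71.5 in KO LPS and 32.5 and 34.4 in untreated KO, against 24.2 and 27.3 in WT LPS and 0.780 and 0.510 in untreated WT. Cd200r4, a CD200 receptor family gene, stood at 85.6 and 68.5 in KO LPS and 84.0 and 79.5 in untreated KO, against 35.9 and 40.9 in WT LPS and 45.6 and 67.3 in untreated WT. All 5 differed by 32.0 to 37.5 points. S100a8, Postn, Dgke and Cd200r4 kept the call under -log10 p, and the libraries of Efhd2 overlapped there, at a difference of 39.4 points.

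The 5 that stood lowest lay at Gm5141, Zmpste24, Acads, Optc and Chrnb2, with differences of -31.6 to -35.08 points. The start of Zmpste24 stood at 22.0 and 24.7 in KO LPS libraries and 40.4 and 20.7 in untreated KO, against 64.7 and 44.7 in WT LPS and 49.5 and 78.8 in untreated WT. By -log10 p the difference was -20.8 points and the libraries overlapped, as they did for Gm5141. Acads, a mitochondrial acyl-CoA dehydrogenase gene, stood at 40.4 and 31.3 in KO LPS and 41.6 and 49.4 in untreated KO, against 69.7 and 76.3 in WT LPS and 66.0 and 78.0 in untreated WT, and kept the call. Optc and Chrnb2 kept it as well, and Chrnb2 lies within 5 Mb of Lmna.

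Among the lists, the nuclear pore and lamina genes had 4 regions higher in KO (15.4%, against 5.39% of all regions) and 1 lower (3.85%, against 3.36%) of 26, in genes named after their values were seen. Nup43, a nucleoporin of the Y complex, stood at 52.8 and 47.9 in KO LPS libraries and 45.9 and 46.0 in untreated KO, against 23.3 and 15.2 in WT LPS and 24.6 and 18.1 in untreated WT. Ranbp2, the large nucleoporin of the cytoplasmic filaments, differed by 22.6 points, and these 2 kept the call under -log10 p while Aaas and Lmna did not. Translation initiation factors had 5 higher (17.2%) and none lower of 29, with Eif4b and Eif3h called by both rankings and that of Eif4a1 shared with Cd68, and the spliceosome had 5 higher (11.6%) and none lower of 43, with Sf3b6, Prpf6 and Dhx15 called by both. The chaperone genes Tcp1, Hspa4 and Hspa8 were higher in KO (17.6% of 17, with none lower) and kept the call. These 3 shares stand beside 5.39% of all regions by fold enrichment, and by -log10 p the 5 initiation factor regions came to 2, the 5 of the spliceosome to 3 and the 3 chaperone regions to 3. Macrophage identity regions at Cd68, Runx1, Spi1 and Mpeg1 were higher in KO (18.2% of 22) by 4.31 to 20.1 points, and none of these 4 kept the call. Interferon response regions had 3 higher in KO (9.38%, against 5.39% of all regions), at Oas2, Irf1 and Oas3, and 2 lower (6.25%, against 3.36%), at Ifit3 and Isg20, of 32. Irf1 and Ifit3 kept the call under -log10 p, while Oas2, Oas3 and Isg20 did not. Ifit3 stood at 34.2 and 35.0 in KO LPS and 22.7 and 18.8 in untreated KO, against 46.5 and 37.3 in WT LPS and 67.05 and 61.1 in untreated WT.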

How the data were processed

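ATAC-seq peak lists of 8 libraries were used, 1 list per library and 2 libraries per group. Per the submitters' processing notes, BWA 0.7.12, MACS2 and mm10 were used, and the file names call the peaks filtered by a filter that is not given in the sources used here. The fold enrichment of each peak over local background, a ratio, and its -log10 p are the authors' deposited values, and read depth per library was not used here, so weak peaks of a shallow library cannot be told from absent ones. The score column and the -log10 q column that the authors deposited in each list were not used. Regions, percentiles, widths and summits were computed with Python 3.11.15, numpy 2.4.6 and pandas 2.3.3, and figures with matplotlib 3.10.9. Gene spans and promoters came from RefSeq (mm10). Gene spans carry no strand.

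Group differences were tested on 1 median per library, by exact permutation within the other factor (smallest p 0.0556) or by exact sign-flips over 8 libraries (smallest p 0.0078), two-sided, with Benjamini-Hochberg adjustment over 18 tests, of which some were added after the values were seen. Tests of width and summit distance are counted in the 18 but not used, since the rule used both. The tests were checked on short made-up values with known answers, and the non-overlap calls on simulated libraries. Members and gene lists were chosen with earlier results of these data known. Named are the 10 strongest members, the 5 largest non-overlapping differences in each direction for LPS and for KO, the top 3 genes of each list, every member at a gene of another lineage and the regions nearest each threshold. Genes named from the calls within lists were chosen after their values were seen. By the rule the promoters of Gm4606 and Olfr110 would also be shown; they are not, because the summits lie outside the windows. Alternatives were ranking by -log10 p, stricter or equal numbers of peaks, other overlaps, distances and widths, each library left out, and a replicate block. Some genes that the rule or the lists would name are not reported here.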

Additional observations from a re-analysis of the deposited data

Results flagged for a closer look

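At 8 of the 216 regions that the naming rule or the list calls picked (3.70%), both KO libraries stood on one side of the untreated KO libraries with LPS and both WT libraries stood on the opposite side of the untreated WT libraries. The same held at 3.70% of all 7613 members and 3.15% of all 30395 regions, so the share among the picked regions was that among the members. The values below are the LPS effect in KO minus the LPS effect in WT, in percentile points, and none of these differences was tested. It was 36.02 at the interferon-induced gene Ifit3 and 33.52 at Gm5141. It was 10.46 at Mars1 and -16.36 at Cars2, which encode aminoacyl-tRNA synthetases. It was 6.84 at Eif4b and 7.355 at Eif3h, which encode translation initiation factors, 6.56 at the interferon-induced exonuclease gene Isg20 and -7.17 at the mitochondrial ribosomal protein gene Mrps17.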

How the results depend on the processing

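Under the other settings 239 values kept their direction, side of the threshold and, for counts, size within 1.5 times, 12 moved further and 5 reversed. For the LPS, KO and interaction tests no p could fall below 0.0556. Their side of the 0.05 threshold was therefore fixed in advance, and only their direction could change. With regions ranked by -log10 p, the KO minus WT median percentile was -1.29 and KO-higher regions numbered 242 (3.18%, against 3.7% of all regions). With widths under 500 bp, 1401 regions remained, of which 132 were higher and 172 lower with LPS and 90 higher and 43 lower in KO. The shares over all 30395 regions, which this limit does not change, were 12.3% and 13.2% for LPS and 5.39% and 3.36% for KO. At this limit the difference from distant regions was -9.03 points and the KO minus WT summit distance 1 bp. Among named regions, the difference under the -log10 p ranking changed by less than the SD between replicates at 55, by more in the same direction at 98, and reversed at 10. The -log10 p ranking turned the LPS difference to -0.622 at Lars, 3.02 at Usp18, 1.17 at Mrps15, 1.62 at Psmb6, -0.0127 at Plrg1 and -0.0123 at Snrpa, and the KO difference to -3.58 at Cars2, -1.03 at Oas3, -0.237 at Sf3b1 and -0.0736 at Eif2b4. The cause was not tested. Leaving out 1 library gave 651 to 782 KO-higher and 329 to 440 KO-lower regions, for which no background share was computed. The interaction then was -2.17 to 0.160 points in percentile (0.160 without KO LPS replicate 2) and -1.5 to 8.5 bp in summit distance (-1.5 without untreated KO replicate 2).

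The replicate numbers did not pair the libraries, with correlations of same-numbered deviations between groups of -0.080 to 0.035. With a replicate block the smallest possible p was 0.125, and the LPS difference in percentile of -2.32 had an exact permutation p of 0.125 and the KO difference of 0.892 had 0.375.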
